A study of Homo sapiens with 4 samples.

Results

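The genes described here are 42 genes of glycolysis and of the response to low oxygen, taken by symbol from the 35606 genes of the count table. They fall by role into 18 glycolytic enzymes, 3 transporters, 4 regulatory kinases, 5 genes of oxygen sensing and 12 other targets of the hypoxia-inducible factors (HIF). Their RNA was measured in K562 cells, a chronic myelogenous leukaemia line with erythroid features, which both groups share. The fusion group expressed JAZF1-SUZ12, a joining of the zinc finger gene JAZF1 to SUZ12, a core subunit of Polycomb repressive complex 2, and the control group is labelled mock, with 2 libraries in each. How the fusion was delivered, what drives it, whether the cells are a clone and whether the libraries came from separate cultures are not given in the sources used here, so p-values measure only the spread between these libraries.

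Glycolysis splits glucose into pyruvate in the cytosol and yields ATP without oxygen, and lactate dehydrogenase then turns pyruvate into lactate, which leaves the cell through monocarboxylate transporters. In oxygen, prolyl hydroxylases of the EGLN family mark HIF alpha subunits for the VHL ubiquitin ligase, which has them destroyed. When oxygen is short the alpha subunits persist, pair with ARNT and bind hypoxia response elements, whose core is ACGTG or GCGTG, at genes of glycolysis, of red cell formation, of blood vessel growth and of mitochondrial removal. Much of this control acts on HIF protein, which RNA-seq does not measure.

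The libraries held 17260936 to 24423028 estimated counts. JAZF1 counts were 12 and 27 in mock and 574 and 731 with the fusion, and SUZ12 was 2.01-fold higher, so the labels and the partner genes went the same way. A source label names the uterus, but erythroid markers of K562 summed to 6958 to 7174 CPM (counts per 1000000, scaled by TMM) in mock and 8003 to 8234 in the fusion libraries, while stromal markers summed to at most 1.38 CPM, with LUM at 0 counts in every library. Of the markers of other cells, the lymphoid sum was 4.18 to 6.13 CPM, with MS4A1 at 0, and the epithelial sum 868 to 920.2 CPM, most of it KRT8, while EPCAM was lower with the fusion (62.4 and 58.7 CPM in mock, 54.3 and 48.3 with it, log2 fold change -0.25, edgeR adjusted p = 0.0175). Monocytic markers summed to 30.2 to 34.7 CPM in mock and 22.2 to 23.6 CPM in the fusion libraries, all but at most 2 counts of it LYZ, which fell (log2 fold change -0.51, edgeR adjusted p = 0.000692), and the part of any of these markers in the results below was not tested.

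Most of these genes were higher in the cells with the fusion. Of 42 genes, 41 passed the filter on low counts and 29 changed at an adjusted p under 0.05 in edgeR's quasi-likelihood test, beside 24.7% of all 14750 genes tested. Of the 29, 27 were higher, where 13.3% of all genes were, and 2 were lower, where 11.4% of all genes were. The median log2 fold change of the 41 was 0.32, beside 0.0032 for all genes tested. The changes were mostly small: 16 of the 27 rises were under 0.5 on the log2 scale, and 2, of PDK3 and NDRG1, were above 1. In 34 of the 41 genes both fusion libraries lay above both mock libraries, as in 31.0% of all genes, and in 4 both lay below, as in 30.3%. Abundance matters to such counts, since more abundant genes are called more often. Among genes that averaged 1000 counts or more, 33.1% passed and 8.37% were called higher, against 24 and 22 of the 32 members that abundant. A gene is called from these same libraries, so a lack of overlap in a called gene adds no separate support. In bulk RNA, a change in the RNA per cell and a change in the share of cells that make it cannot be told apart.

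**Figure D1:**
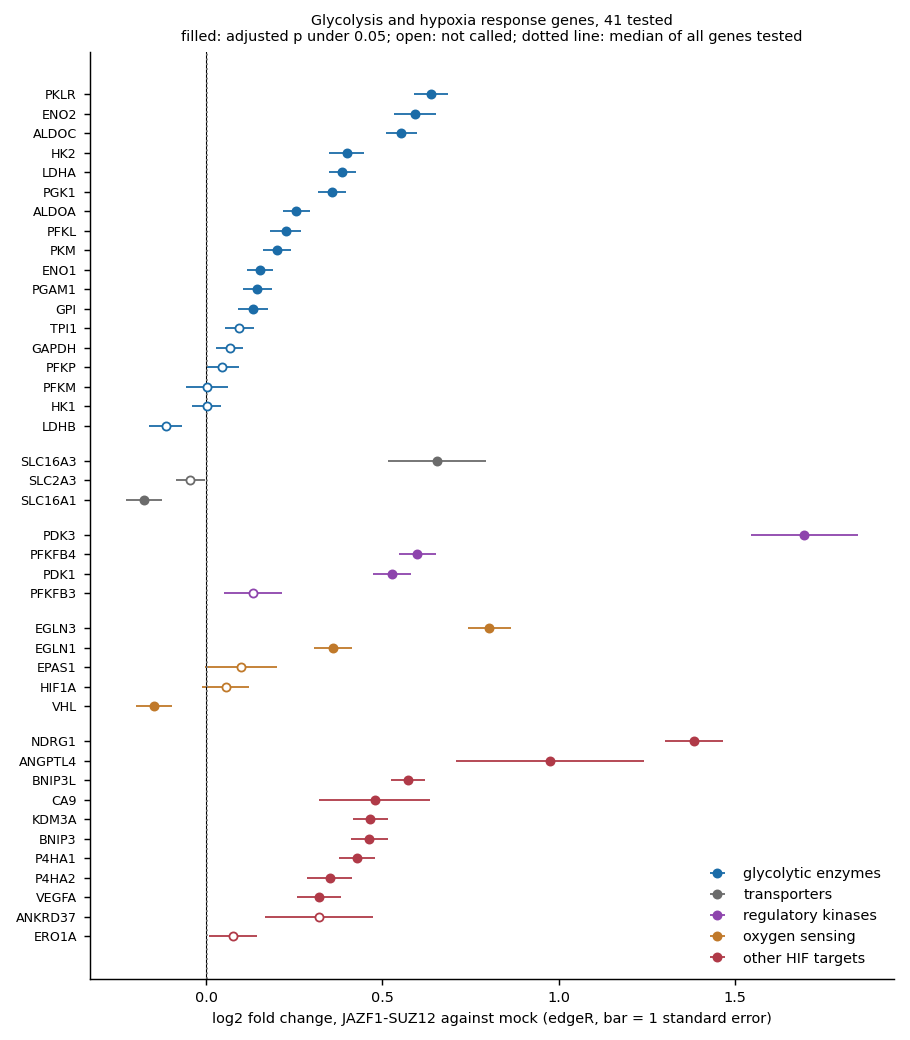
Log2 fold change, fusion over mock, for the 41 tested genes, grouped by role, with bars of 1 standard error from edgeR; filled points were called at an adjusted p under 0.05. Of these points 37 lie above 0, and PDK3 (1.70) and NDRG1 (1.38) lie farthest to the right.

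Of the 18 enzymes, 12 were called and all 12 rose, beside 24.7% of all genes called and 13.3% called higher. All 18 averaged at least 1000 counts, and of all genes that abundant 33.1% were called and 8.37% were called higher. The median log2 fold change over the 18 was 0.18, with a range from -0.11 to 0.64. Together the enzymes took 1.60% and 1.61% of all counts in mock and 1.86% and 1.87% with the fusion. The rises touched both the energy-investing and the energy-yielding steps, and the 3 above 0.5 were in the less abundant isozymes PKLR, ENO2 and ALDOC.

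Hexokinase traps glucose in the cell as glucose 6-phosphate. HK1, the more abundant hexokinase, was at 903 and 927 CPM in mock and at 932 and 899.9 CPM with the fusion, and its groups overlapped (log2 fold change 0.00 ± 0.041, SE, edgeR adjusted p = 0.992). HK2, the isozyme that HIF is known to induce, was at 145 and 152 CPM in mock and at 196 and 195 CPM with the fusion, with a log2 fold change of 0.40 ± 0.049 (SE, adjusted p = 2.27e-05 by edgeR). Both fusion libraries were above both mock libraries for HK2, whereas those of HK1 were mixed with them. GPI, which turns glucose 6-phosphate into fructose 6-phosphate, was at 652 and 689.7 CPM in mock and at 742 and 729.8 CPM with the fusion (log2 fold change 0.13, edgeR adjusted p = 0.0308). That rise was small and rested on mock replicate 1, without which the log2 fold change was 0.085 and the adjusted p 0.304.

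Phosphofructokinase makes the committed step of the pathway. Its liver type, PFKL, the most abundant of the step, was at 241 and 238 CPM in mock and at 282 and 279 CPM with the fusion (log2 fold change 0.23 ± 0.044, edgeR adjusted p = 0.00148). Neither the muscle type PFKM (log2 fold change 0.00) nor the platelet type PFKP (0.05) was called. Aldolase then splits the sugar. ALDOA was at 2826 and 2933 CPM in mock and at 3449 and 3425 CPM with the fusion (log2 fold change 0.26 ± 0.038, edgeR adjusted p = 0.000156). ALDOC, the aldolase best known from brain, was at 319 and 328 CPM in mock and at 463 and 486 CPM with the fusion (log2 fold change 0.55 ± 0.044, edgeR adjusted p = 2.40e-07). For each of these called genes both fusion libraries stood above both mock libraries.

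In the middle of the pathway the changes were uneven. TPI1, which interconverts the triose phosphates, and GAPDH, which oxidises glyceraldehyde 3-phosphate, were not called, at log2 fold changes of 0.09 and 0.07. PGK1, which makes the first ATP of the yielding phase, was at 875 and 866 CPM in mock and at 1106 and 1124 CPM with the fusion (log2 fold change 0.36 ± 0.039, edgeR adjusted p = 7.06e-06). PGAM1, the phosphoglycerate mutase, was at 534 and 532 CPM in mock and at 598 and 580.4 CPM with the fusion (log2 fold change 0.15, edgeR adjusted p = 0.0167). Without either mock library PGAM1 was not called (adjusted p 0.0803 and 0.0998).

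The last steps of glycolysis rose at several genes. ENO1, the main enolase, was at 2462 and 2438 CPM in mock and at 2753 and 2693 CPM with the fusion (log2 fold change 0.15 ± 0.038, edgeR adjusted p = 0.00759, or 0.0523 without mock replicate 2). ENO2, the neuronal enolase, was at 61.3 and 65.3 CPM in mock and at 96.3 and 94.7 CPM with the fusion (log2 fold change 0.59 ± 0.059, edgeR adjusted p = 2.42e-06). The scarcer enolase therefore had the larger fold of the pair, and its libraries did not overlap. PKM, the pyruvate kinase of most tissues, was at 1103 and 1099 CPM in mock and at 1261 and 1270.5 CPM with the fusion (log2 fold change 0.20 ± 0.039, edgeR adjusted p = 0.00128). PKLR, the pyruvate kinase of liver and red cells, was at 146 and 152 CPM in mock and at 233 and 230.03 CPM with the fusion, with the highest fold of the 18 enzymes (log2 0.64 ± 0.048, edgeR adjusted p = 1.23e-07). Both fusion libraries exceeded both mock libraries for each pyruvate kinase.

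Lactate dehydrogenase is a tetramer of A and B subunits, of which LDHA favours the making of lactate. LDHA was at 1708 and 1676 CPM in mock and at 2217 and 2204 CPM with the fusion (log2 fold change 0.39 ± 0.038, edgeR adjusted p = 2.27e-06). LDHB, at 757 and 696 CPM in mock and 686 and 656 CPM with the fusion, was not called (log2 fold change -0.11, edgeR adjusted p = 0.0842). Its fusion libraries were both below its mock libraries, and it was called lower without fusion replicate 1 (adjusted p 0.00734) or mock replicate 2 (adjusted p 0.0127). Without fusion replicate 2 its log2 fold change was -0.084 (adjusted p 0.222), and without mock replicate 1 it was -0.062 (adjusted p 0.488).

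**Figure D2:**
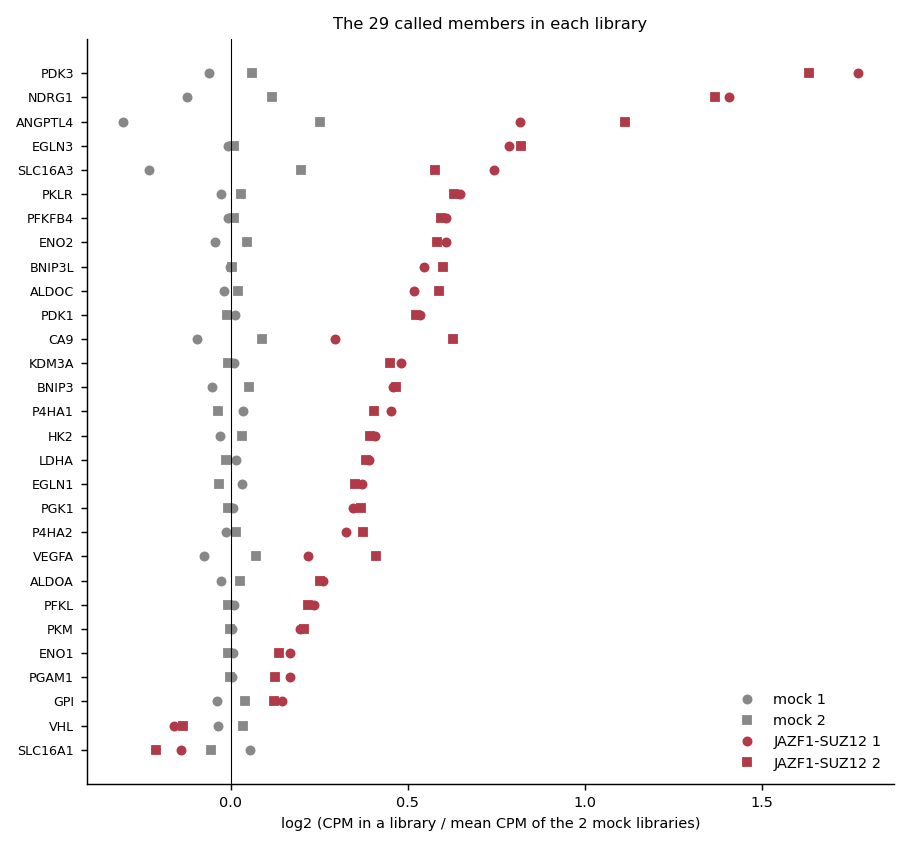
Log2 ratio of the CPM in each library to the mean CPM of the 2 mock libraries, for the 29 called genes; each point is 1 library. In every one of the 29 the fusion libraries and the mock libraries do not overlap, and for SLC16A1 and VHL the fusion points lie to the left. The genes were called from these same libraries, so the gap adds no support to the calls. Over all genes tested, both fusion libraries lay above both mock libraries in 31.0% and below them in 30.3%.

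The makeup of each step was set out as a share of counts divided by transcript length. This allows genes of different length to be compared, but the level of a share depends on the length taken. Before that division, PFKL took 49.3% and 48.9% of the phosphofructokinase counts in mock and 52.4% and 52.5% with the fusion. Per length, HK2 made up 10.1% and 10.2% of the hexokinase counts in mock and 12.8% and 13.1% with the fusion. PFKL went from 63.4% and 63.0% to 66.2% and 66.3% of phosphofructokinase, and ALDOC from 9.23% and 9.14% to 10.8% and 11.3% of aldolase. The neuronal enolase ENO2 stayed a small part, at 1.80% and 1.93% in mock and 2.51% and 2.52% with the fusion. All 4 of these shares were higher in both fusion libraries than in both mock libraries. PKLR went from 9.90% and 10.3% to 13.3% and 13.1% of pyruvate kinase. LDHA had the widest shift of the 6 glycolytic steps, from 63.7% and 65.2% to 71.5% and 72.3% of lactate dehydrogenase. With 2 libraries against 2, an exact two-sided permutation test of a share cannot give a p below 0.333, so the shares carry no test, and which transcript each library used was not measured.

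**Figure D3:**
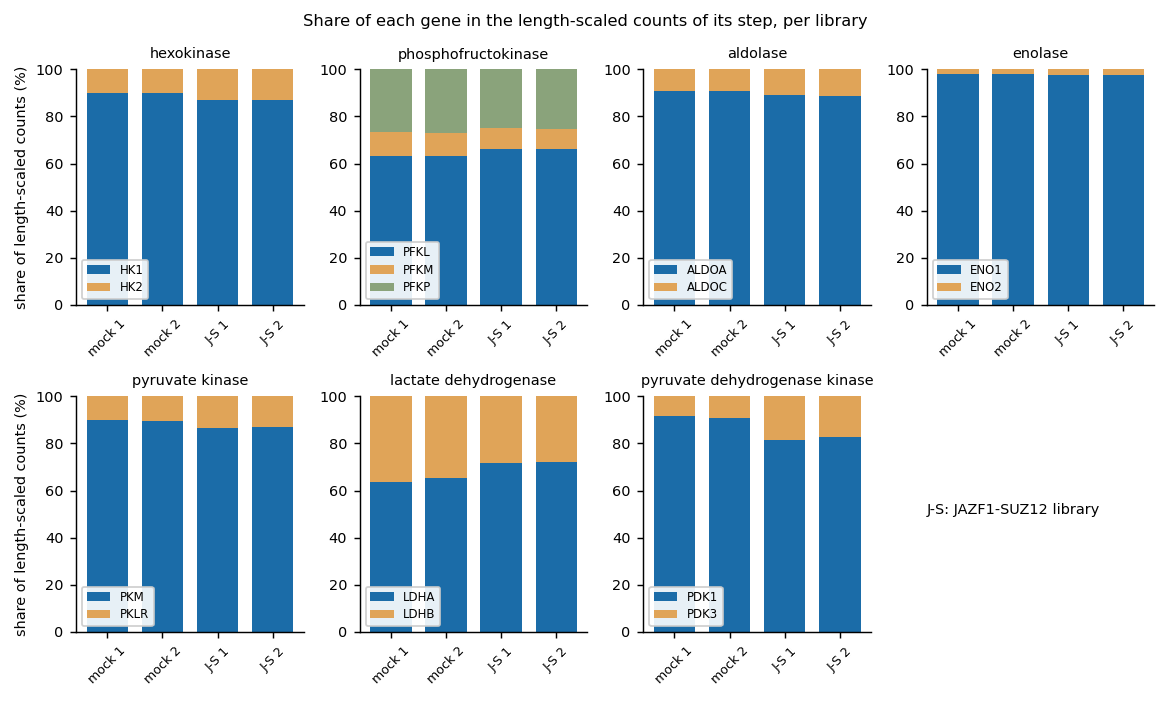
Share of each gene in the counts per transcript length of its step (percent, stacked to 100), for the 2 mock and the 2 JAZF1-SUZ12 (J-S) libraries, with the pyruvate dehydrogenase kinases in the last panel. The LDHA part is at 63.7% and 65.2% in mock and at 71.5% and 72.3% with the fusion.

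Of the 3 transporters 1 rose and 1 fell, where 13.3% of all genes were called higher and 11.4% lower. SLC16A3 (MCT4), a lactate exporter that HIF is known to induce, was scarce, at 9.60 and 12.9 CPM in mock and 18.9 and 16.8 CPM with the fusion (log2 fold change 0.66 ± 0.14, edgeR adjusted p = 0.00273). SLC16A1 (MCT1), which carries lactate and pyruvate in both directions, was at 226 and 209 CPM in mock and at 198 and 188 CPM with the fusion, and fell (log2 fold change -0.18 ± 0.051, edgeR adjusted p = 0.0196). The 2 lactate carriers therefore moved in opposite directions, each without overlap. SLC16A1 was not called without fusion replicate 2 (adjusted p 0.0835) or mock replicate 1 (adjusted p 0.176). The glucose transporter SLC2A3 (GLUT3) was not called (log2 fold change -0.05, edgeR adjusted p = 0.471).

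Among the 4 regulatory kinases 3 rose, where 13.3% of all genes were called higher, and the median log2 fold change was 0.56. Pyruvate dehydrogenase kinases switch off the enzyme that feeds pyruvate to the mitochondria. PDK3 (ENSG00000067992, chrX:24465221-24541862, plus strand) was at 4.48 and 4.88 CPM in mock, or 91 and 103 counts, and at 16.0 and 14.5 CPM with the fusion, or 275 and 360 counts. That is a 3.24-fold rise (log2 1.70 ± 0.152, edgeR adjusted p = 7.17e-07), the highest fold among the 41 tested genes. PDK1, the kinase best known as a HIF target, was at 77.5 and 76.3 CPM in mock and at 111 and 110.5 CPM with the fusion (log2 fold change 0.53 ± 0.055, edgeR adjusted p = 3.81e-06). PDK1 remained the more abundant: of the counts per length of both, PDK3 held 8.48% and 9.30% in mock and 18.7% and 17.4% with the fusion. The bifunctional enzymes PFKFB3 and PFKFB4 set the level of fructose 2,6-bisphosphate, the activator of phosphofructokinase. PFKFB4 was at 94.6 and 95.9 CPM in mock and at 145 and 144 CPM with the fusion (log2 fold change 0.60 ± 0.052, edgeR adjusted p = 4.90e-07). PFKFB3 was not called (log2 fold change 0.13, edgeR adjusted p = 0.267).

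Of the 5 oxygen sensing genes 2 were called higher and 1 lower, where 13.3% of all genes were called higher and 11.4% lower. The alpha subunits HIF1A and EPAS1 (HIF-2 alpha) were not called. HIF1A was at 43.4 and 45.9 CPM in mock and at 46.5 and 46.4 CPM with the fusion (log2 fold change 0.06 ± 0.067, edgeR adjusted p = 0.602). EPAS1 was at 17.2 and 17.9 CPM in mock and at 19.5 and 18.2 CPM with the fusion (log2 fold change 0.10 ± 0.103, edgeR adjusted p = 0.535). Both fusion libraries were above both mock libraries in each, but the differences were within about 1 standard error.

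Both prolyl hydroxylases among the members, which HIF is known to induce, rose. EGLN1 (PHD2), the main oxygen sensor, was at 97.8 and 93.5 CPM in mock and at 124 and 122 CPM with the fusion (log2 fold change 0.36 ± 0.054, edgeR adjusted p = 0.000153). EGLN3 (PHD3; ENSG00000129521) was at 44.8 and 45.3 CPM in mock and at 77.6 and 79.5 CPM with the fusion, a 1.74-fold rise (log2 0.80 ± 0.061, edgeR adjusted p = 1.31e-07). Neither hydroxylase had overlapping groups. VHL, which recognises hydroxylated HIF, was at 139 and 146 CPM in mock and at 128 and 130.1 CPM with the fusion, and fell (log2 fold change -0.15 ± 0.052, edgeR adjusted p = 0.0457). The fall of VHL did not pass in DESeq2 (adjusted p 0.0993) or without fusion replicate 1 (0.0910), fusion replicate 2 (0.0717) or mock replicate 2 (0.215).

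Among the other HIF targets, 9 of the 11 tested were called higher and none lower, where 13.3% of all genes were called higher and 11.4% lower. Their median log2 fold change was 0.46, with a range from 0.08 to 1.38. Together the 12 took 0.0819% and 0.0846% of all counts in mock and 0.113% and 0.118% with the fusion. NDRG1, a stress-responsive gene long used as a marker of hypoxia, was at 18.7 and 22.04 CPM in mock and at 54.0 and 52.5 CPM with the fusion, a 2.61-fold rise (log2 1.38 ± 0.083, edgeR adjusted p = 1.24e-08). ANGPTL4, a secreted inhibitor of lipoprotein lipase, was very scarce, at 38 and 58 counts in mock and 70 and 124 counts with the fusion, or 1.87 and 2.75 against 4.07 and 5.0 CPM. Its log2 fold change was 0.98 ± 0.267 (edgeR adjusted p = 0.0137), and it was not called in DESeq2 (adjusted p 0.0526) or without fusion replicate 2 (0.108) or mock replicate 1 (0.0942). So the top 2 folds of the group came from genes at very different depth.

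BNIP3 and BNIP3L (NIX) are receptors that mark mitochondria for removal, and BNIP3L does so as red cells mature. BNIP3L was at 135 and 135 CPM in mock and at 197 and 205 CPM with the fusion (log2 fold change 0.57 ± 0.049, edgeR adjusted p = 4.46e-07). BNIP3 was at 122 and 131 CPM in mock and at 174 and 175 CPM with the fusion (log2 fold change 0.46 ± 0.052, edgeR adjusted p = 9.79e-06). Both receptors rose with no overlap of the groups. BNIP3 has 39 pseudogene rows in the table, whose summed counts came to 4.34% to 8.20% of its own, so its count is less certain than that of the other members with pseudogenes, for which the sums were at most 0.510%.

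KDM3A, P4HA1 and P4HA2 encode oxygen-using hydroxylases. KDM3A, a histone H3 lysine demethylase, was at 123 and 121 CPM in mock and at 170.2 and 167 CPM with the fusion (log2 fold change 0.46 ± 0.05, edgeR adjusted p = 5.29e-06). P4HA1, a catalytic subunit of collagen prolyl hydroxylase, was at 142 and 136 CPM in mock and at 190.1 and 184 CPM with the fusion (log2 fold change 0.43 ± 0.05, edgeR adjusted p = 1.46e-05). P4HA2, its paralog, was at 42.7 and 43.6 CPM in mock and at 54.0 and 55.8 CPM with the fusion (log2 fold change 0.35 ± 0.065, edgeR adjusted p = 0.000968). All 3 rose to a like degree, each with both fusion libraries above both mock libraries.

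VEGFA, the blood vessel growth factor, was at 173 and 191 CPM in mock and at 212 and 242 CPM with the fusion (log2 fold change 0.32 ± 0.063, edgeR adjusted p = 0.00149). CA9, a cell surface carbonic anhydrase and a common hypoxia marker, was at 7.68 and 8.72 CPM in mock and at 10.05 and 12.7 CPM with the fusion (log2 fold change 0.48 ± 0.157, edgeR adjusted p = 0.0352). These groups were apart but their libraries were more spread than those of the enzymes, and CA9 was not called in DESeq2 (adjusted p 0.141), without fusion replicate 2 (log2 fold change 0.29, adjusted p 0.353) or without mock replicate 1 (adjusted p 0.140). ANKRD37 (log2 fold change 0.32) and the oxidoreductase ERO1A (0.08) were not called, at edgeR adjusted p of 0.142 and 0.46. ADM, the vasodilator adrenomedullin, had 6 and 1 counts in mock and 3 and 13 with the fusion, and was too low to test.

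Set side by side, 12 of 18 enzymes and 9 of 11 tested other HIF targets rose, and the medians of their log2 fold changes were 0.18 and 0.46. Of members that averaged 1000 counts or more, 12 of 18 enzymes and 6 of 7 other HIF targets were called higher. Over all genes that abundant the share was 8.37%. The difference between the groups of genes was not tested, since genes are not replicates. With 7 further members known as HIF targets (SLC2A3, SLC16A3, PDK1, PFKFB3, PFKFB4, EGLN1 and EGLN3) added to the other targets, 14 of 18 tested rose and the median stayed 0.46. Their levels overlapped. Per kilobase of transcript, the 18 enzymes ranged from 24.4 (PFKM) to 1989.6 CPM (GAPDH) in mock with a median of 238, and the 12 other HIF targets from 0.137 (ADM) to 163 CPM (VEGFA) with a median of 17.1. The enzymes ENO2, HK2 and PKLR, at 26.1, 26.8 and 53.8 CPM per kilobase, stood among the other HIF targets KDM3A (25.7) and P4HA1 (49.8). PFKM at 24.4 and PFKP at 67.4, which were not called, also lay within the range of the other HIF targets.

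**Figure D4:**
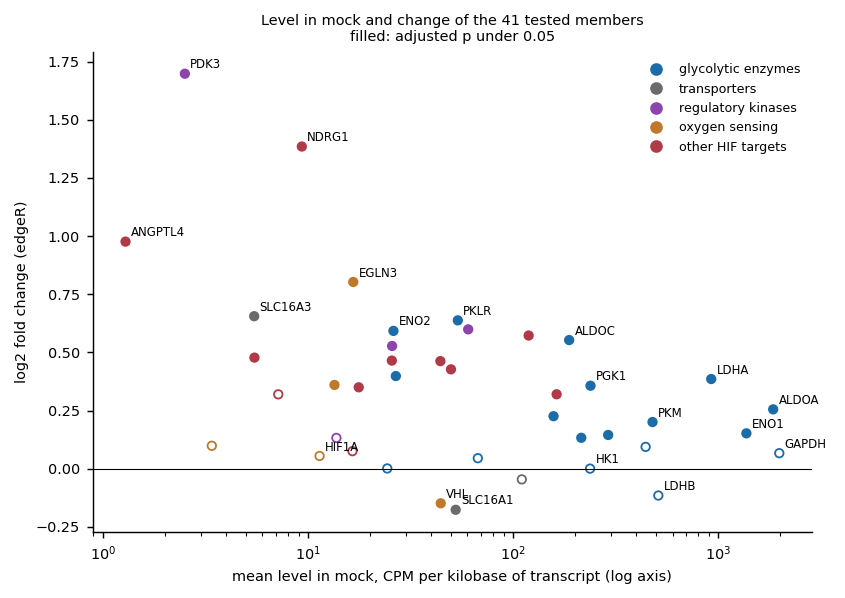
Mean mock level in CPM per kilobase of transcript (log axis) against the log2 fold change of the 41 tested genes, coloured by role; filled points were called at an adjusted p under 0.05. PDK3, at 2.51 CPM per kilobase, has the highest fold, and the enzymes at the right, such as ALDOA at 1858, lie below 0.4.

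In the authors' deposited table, 21 of the 42 members had an adjusted p under 0.05, beside 8.50% of the genes given one there, and all 21 were higher with the fusion. All 21 were also called here, and 8 were called here but not in the authors' deposited table: GPI, PGAM1, SLC16A1, SLC16A3, VHL, P4HA2, CA9 and ANGPTL4. The authors' deposited table gives log2 fold changes of 1.82 for PDK3, 1.07 for NDRG1, 0.85 for EGLN3 and 0.36 for LDHA. In the authors' deposited table HIF1A was at 0.21 and EPAS1 at 0.35, both with adjusted p above the threshold (0.451 and 0.360).

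A list of 55 further genes of the same pathways was read from the same fit. Of these 43 could be tested and 14 were called, 13 higher and 1 lower (24.7% of all genes were called, 13.3% higher), with a median log2 fold change of 0.08. The 5 called with a log2 fold change of at least 0.5 were PDK4, BHLHE40, MXI1, INSIG2 and HILPDA. PDK4, a pyruvate dehydrogenase kinase induced in fasting, was at 9.60 and 8.72 CPM in mock and at 27.9 and 26.7 CPM with the fusion, a 2.98-fold rise (log2 1.58 ± 0.109, edgeR adjusted p = 6.01e-08). Hence 3 pyruvate dehydrogenase kinases were called higher, while PDK2 had at most 17 counts in a library and was not tested, and the E1 subunits of the enzyme they inhibit, PDHA1 (log2 fold change -0.01) and PDHB (-0.14), were not called. BHLHE40, a transcriptional repressor, was at 219 and 222 CPM in mock and at 327 and 346 CPM with the fusion (log2 fold change 0.61, edgeR adjusted p = 1.37e-07). HILPDA, a lipid droplet protein, was at 13.8 and 11.1 CPM in mock and at 19.5 and 19.2 CPM with the fusion (log2 fold change 0.63, edgeR adjusted p = 0.00123). MXI1, a MYC antagonist, and INSIG2, a regulator of sterol synthesis, had log2 fold changes of 0.51 and 0.55. In all 5, which were picked by a call from the same libraries, both fusion libraries lay above both mock libraries, as in 31.0% of all genes.

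SLC2A1 (GLUT1), the glucose transporter most often tied to HIF, was at 187 and 179 CPM in mock and at 213 and 202 CPM with the fusion, a small rise (log2 fold change 0.18, edgeR adjusted p = 0.0152). EGLN2 (PHD1), the prolyl hydroxylase that hypoxia is not known to induce, was the gene that fell, from 102 and 105 CPM to 92.2 and 86.4 CPM (log2 fold change -0.21, edgeR adjusted p = 0.0117). The fall of EGLN2, opposite to EGLN1 and EGLN3, was not called without fusion replicate 2 (log2 fold change -0.17, adjusted p 0.105), and the rise of SLC2A1 was not called without fusion replicate 1 (adjusted p 0.0694) or mock replicate 2 (0.146). SLC2A1, EGLN2, PDK2, PDHA1 and PDHB were singled out after their values were seen.

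**Figure D5:**
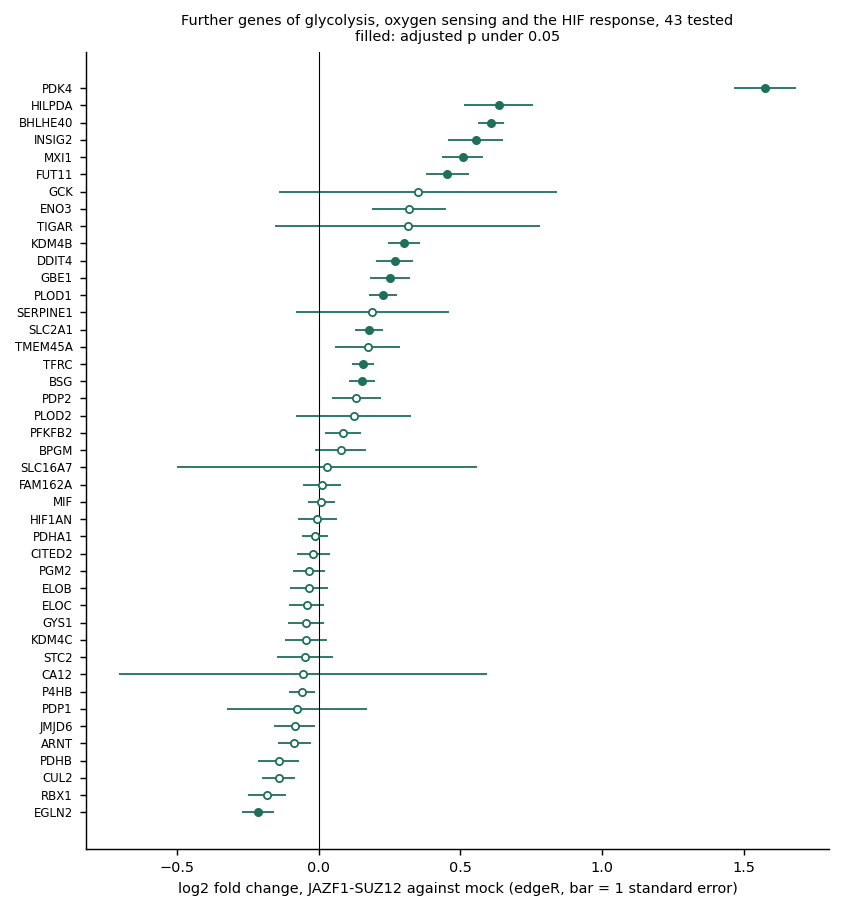
Log2 fold change, fusion over mock, for the 43 tested further pathway genes, with bars of 1 standard error from edgeR; filled points were called at an adjusted p under 0.05. PDK4 (1.58) stands apart at the upper end, and EGLN2 (-0.21) is the only filled point below 0.

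Since many members moved together, their promoter windows were read for the letters of the hypoxia response element core. RefSeq windows (GRCh38.p14) were matched for 36 of the 42 genes, 65 windows in all, and the 250 bases before each start were searched on both strands for ACGTG and GCGTG; windows of 1 gene can overlap. ACGTG was found in 26 of the 65 windows (40.0%), beside 18.5% of all 35116 windows and 21.7% of the 15910 windows of tested genes. GCGTG was found in 33.8% of the members' windows, beside 32.2% of all windows and 42.7% of those of tested genes. The palindrome CACGTG holds ACGTG on both strands, and other factors bind it too. It was in 13.8% of the members' windows, 6.34% of all and 8.04% of those of tested genes. When matches within that palindrome were left out, ACGTG was in 30.8% of the members' windows. The share was then 13.2% of all windows and 15.0% of those of tested genes. Counted by gene, ACGTG stood in at least 1 window of 16 of the 24 matched genes called higher and of 7 of the other 12. Over all genes with a window it was 5935 of 27305, and over tested genes 3070 of 10895. A gene with more windows has more chances of a match. Counted by window, ACGTG was in 19 of 35 for the members called higher and in 7 of 30 for the others. HK1, PFKM and PFKP alone gave 18 of those 30 windows. By role, 12 of 18 enzymes, 6 of 9 other HIF targets, 3 of 4 kinases, 1 of 4 oxygen sensing genes and the 1 matched transporter had a window with it. A match is a run of letters, not a site shown to be bound. Many members were listed as HIF targets beforehand, and the part of the fusion in these shares was not tested.

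The stretches below show how unlike these windows are among genes with large, moderate and no called change. PDK3 and EGLN3 had high folds, PKLR the highest fold of the enzymes, PGK1 and BNIP3 are classical HIF targets that rose 1.28-fold and 1.38-fold, ANGPTL4 was scarce, and LDHB was not called; they were chosen after their values were seen. Each runs 5′ to 3′ on the gene's strand, ends before the first annotated exon base, and has in capitals each match to ACGTG or to GCGTG, on either strand.
PDK3 (chrX:24465036-24465220, plus strand): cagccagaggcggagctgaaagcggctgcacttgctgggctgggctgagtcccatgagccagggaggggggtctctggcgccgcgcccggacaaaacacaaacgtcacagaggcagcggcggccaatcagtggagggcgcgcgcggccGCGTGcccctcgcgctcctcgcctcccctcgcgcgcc
EGLN3 (chr14:33951082-33951324, minus strand): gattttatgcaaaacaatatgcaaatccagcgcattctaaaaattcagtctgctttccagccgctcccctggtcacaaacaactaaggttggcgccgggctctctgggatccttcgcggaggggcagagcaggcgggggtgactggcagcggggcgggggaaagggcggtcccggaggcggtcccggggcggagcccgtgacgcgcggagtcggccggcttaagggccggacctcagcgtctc
PKLR (chr1:155301439-155301688, minus strand): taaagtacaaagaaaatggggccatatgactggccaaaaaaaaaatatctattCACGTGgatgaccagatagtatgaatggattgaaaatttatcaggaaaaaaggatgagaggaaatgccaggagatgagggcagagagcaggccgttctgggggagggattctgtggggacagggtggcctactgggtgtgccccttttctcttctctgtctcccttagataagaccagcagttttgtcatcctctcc
PGK1 (chrX:78103998-78104173, plus strand): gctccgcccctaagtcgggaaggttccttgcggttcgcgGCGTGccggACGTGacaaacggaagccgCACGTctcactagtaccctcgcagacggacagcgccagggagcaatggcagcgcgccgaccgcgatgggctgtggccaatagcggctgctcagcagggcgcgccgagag
BNIP3 (chr10:131982014-131982173, minus strand): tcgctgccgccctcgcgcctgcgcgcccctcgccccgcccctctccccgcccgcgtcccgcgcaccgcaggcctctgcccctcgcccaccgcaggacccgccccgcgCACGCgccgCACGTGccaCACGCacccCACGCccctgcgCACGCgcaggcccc
ANGPTL4 (chr19:8363905-8364150, plus strand): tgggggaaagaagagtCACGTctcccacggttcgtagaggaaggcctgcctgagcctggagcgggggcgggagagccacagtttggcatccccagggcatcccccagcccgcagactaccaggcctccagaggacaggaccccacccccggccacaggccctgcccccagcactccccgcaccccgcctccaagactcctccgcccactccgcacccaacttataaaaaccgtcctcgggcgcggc
LDHB (chr12:21657972-21658092, minus strand): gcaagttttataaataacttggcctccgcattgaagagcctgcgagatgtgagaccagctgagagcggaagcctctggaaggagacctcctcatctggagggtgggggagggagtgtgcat

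In these stretches the PGK1 promoter held ACGTG on each strand and 1 GCGTG, and that of BNIP3 held the palindrome and 4 matches to GCGTG, all on the other strand. PKLR held 1 palindrome, and ANGPTL4 held ACGTG once on the other strand. PDK3, with the highest fold of all, held GCGTG once, and its window had ACGTG 61 bases before the start, past the end of the stretch shown. EGLN3 held neither core in the stretch or in its whole window, and nor did LDHB.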

How the data were processed

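Poly(A)-selected, strand-directional RNA-seq libraries from K562 cells were analysed, 2 with JAZF1-SUZ12 and 2 mock. The authors deposited estimated counts per gene, not normalized; 29.2% to 32.8% of the values in a library were not whole (tolerance 0.001). The submitters' processing notes name fastp 0.20.1, kallisto 0.46.2, DESeq2 1.30.1 and hg38; the annotation is not given in the sources used here. The authors' deposited table gives a mean signal per gene, a log2 fold change, a test score and p-values, per the file headers. It was used only for its log2 fold changes and adjusted p.

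Estimated counts were rounded to whole numbers. Whether counting used strand is not given, so overlapping and antisense genes are less certain. Genes were filtered with filterByExpr, scaled by TMM and tested with edgeR 4.0.16 (quasi-likelihood F test, group only, R 4.3.3), two-sided, with Benjamini-Hochberg adjustment over 14750 genes and a threshold of 0.05. In counts simulated with 2-fold changes, this test recovered 152 of 200 changed genes among 14455, and 150 of 164 with a mean of at least 50 counts, with 10 false calls. Changes under 2-fold, the size of most rises reported here, were not simulated. Standard errors (± and the bars of the figures) are the size of the log2 fold change divided by the square root of edgeR's F value. CPM values use the TMM-scaled library size. Transcript length is the median of the gene's protein-coding transcripts in the basic set of GENCODE 29, whose gene positions are printed. Alternatives were other scalings, DESeq2 1.42.0, other filters, a replicate block, leaving out each library and a wider list of HIF targets.

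The members and lists were chosen with earlier results of these data known. Per-library values are given for called members, for those with a log2 fold change of at least 0.5 in size and a mean of at least 10 counts, for HIF1A, EPAS1, EGLN1 and VHL, and for the most abundant isozyme of each step. Further pathway genes are named where called with a log2 fold change of at least 0.5 in size. Of 65 promoter windows, the last 50 bases of 54 were found in GENCODE 29 transcripts.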

Additional observations from a re-analysis of the deposited data

How the results depend on the processing

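The members called numbered 24 to 30 over all alternatives, against 29, and the enzymes 10 to 14, against 12. The other HIF targets called numbered 7 to 9, against 9, and 14 with the wider list. The median log2 fold change lay between 0.17 and 0.20 for the enzymes and between 0.41 and 0.49 for the other targets. DESeq2 called 2407 genes over all, against 3643 with edgeR, and 26 members; leaving out 1 library gave 2568 to 3782 genes and 24 to 29 members. HK1, at a log2 fold change near 0, turned negative with DESeq2 size factors (-0.0011), in DESeq2 (-0.0012), with no filter (-0.0083) and without fusion replicate 1 (-0.029) or mock replicate 1 (-0.026), with 0.025 at the other end when a library was left out. PFKM did so with DESeq2 size factors (-0.00032), with no filter (-0.0074) and without fusion replicate 1 (-0.040) or mock replicate 2 (-0.020), with 0.042 at the other end; the cause was not tested. TPI1 was called with total counts (adjusted p 0.0211) or a mean of at least 50 counts (0.0253), and VHL was lost under each of them (0.0788 and 0.0741). GAPDH was called with total counts (0.0334), and LDHB as lower with no filter (0.0148). Library numbers are shared between the groups, and same-numbered libraries' deviations correlated at 0.035 over 11826 genes. With 2 libraries in a group, this value cannot show whether same-numbered libraries shared a culture or a day. A replicate block in the fit gave 4061 genes and 30 members, LDHB being added as lower (adjusted p 0.0204). When a library is left out, the lone library of its group is assumed to vary like the others. ANGPTL4, CA9, PDK3 and SLC16A3 rest on few counts, and ADM was too low to test at this depth.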

Other observations

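The other subunits of the VHL ubiquitin ligase, which destroys hydroxylated HIF, were read from the further pathway genes after the values were seen. CUL2, its scaffold, was at 86.9 and 81.4 CPM in mock and at 77.4 and 75.3 CPM with JAZF1-SUZ12 (log2 fold change -0.14, edgeR adjusted p = 0.0951). RBX1, its RING subunit, was at 45.1 and 44.99 CPM in mock and at 40.4 and 39.1 CPM with the fusion (log2 fold change -0.18, edgeR adjusted p = 0.0597). Both lay lower in both fusion libraries, as 30.3% of all genes did, without passing the test. In DESeq2 their adjusted p was 0.250 and 0.252. The adaptors ELOB and ELOC had log2 fold changes of -0.03 and -0.04, with overlapping groups. Neither ARNT, the partner of the HIF alpha subunits (log2 fold change -0.09), nor HIF1AN, the asparaginyl hydroxylase that blocks their activity (-0.00), was called.

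TFRC, the transferrin receptor, is one of the further pathway genes. It was at 2792 and 2728 CPM in mock and at 3122 and 3029 CPM with the fusion. Its log2 fold change was 0.16 (edgeR adjusted p = 0.00718), and a weaker 0.13 without mock replicate 2 or without fusion replicate 1. HBZ, the embryonic zeta globin among the erythroid markers, was at 549 and 579 CPM in mock and at 1051 and 993 CPM with the fusion (log2 fold change 0.86, edgeR adjusted p = 2.47e-09). GATA1, the erythroid master regulator, was not called (log2 fold change 0.04). HBZ and GATA1 came from the erythroid markers and not from the listed HIF targets, and a link of either to HIF was not tested. These genes were picked out after their values were seen.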
